A study of Homo sapiens with 6 samples.

Results

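Autophagy and lysosome genes were followed in colorectal cancer cells depleted of BZW2, which resembles part of eIF5 and is known to bind translation initiation complexes. The members were 40 named genes among the 13021 genes that had a single entry in the expression table. They comprised 24 genes of the autophagy core machinery and its cargo receptors, 2 MiT/TFE transcription factor genes and 14 genes of the lysosomal membrane, the proton pump and the lysosomal enzymes. The rule that names them uses no measured value, but the members were chosen with earlier results of these data known. HCT116, HT29 and SW480 are established human colorectal cancer lines. In the BZW2 shRNA group, 1 culture of each line stably carried a lentiviral short hairpin RNA (shRNA) against BZW2. In the non-targeting shRNA group, 1 culture of each line carried a hairpin without a target. Puromycin at 1 µg/ml had been used to select all 6 cultures, and each gave 1 RNA sequencing library. The titles name the hairpins SCR and BZW2 SH2, the same pair in each line, and call the HCT116 cells HCT116WT. A single BZW2 hairpin was therefore tested, and the labels do not say whether the selected cells were clones or pools.

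Autophagy encloses cytoplasm in a double membrane that closes into an autophagosome and fuses with the lysosome. The ULK kinase and a PI3-kinase complex start the membrane, ATG2A, ATG9A and the WIPI proteins help it grow, and 2 ubiquitin-like conjugation systems attach ATG8 proteins such as LC3B to it. Receptors such as p62 bind cargo to the ATG8 proteins. The lysosome, acidified by the V-ATPase, then degrades the contents, and the transcription factors TFEB and TFE3 are known to activate many of the genes through the CLEAR motif. Intestinal epithelial and colorectal cancer cells use this route to recycle nutrients and to remove damaged organelles.

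Reads over listed genes ranged from 2187373 in the HCT116 BZW2 shRNA library to 9317444 in the HT29 non-targeting library. BZW2 itself had 29, 133 and 77 reads in the BZW2 shRNA libraries of HCT116, HT29 and SW480, against 530, 1590 and 456 reads in the non-targeting libraries. Its log2 ratio was −2.47, −3.51 and −2.85 in that order of lines. The epithelial markers EPCAM, KRT8, KRT18, KRT19 and CDX2 were listed in all 3 lines, whereas CDH17 was listed in none. The epithelial markers KRT20, CDX1, VIL1 and LGALS4 had no entry. Of the markers of other cell types, COL1A1 was listed, in 2 lines, and the others had no entry either. The HCT116 pair stood apart: the SD of the log2 ratios over all genes was 1.58 there, against 0.67 in HT29 and 0.70 in SW480. In that pair the ratios followed the GC content of the transcript (Spearman 0.66 over 11953 genes), and among the 39 members listed there the Spearman coefficient was 0.59. The points of such a correlation share their libraries, their depth and the base composition of their transcripts. Values with the trend in GC content and length removed are therefore also given for HCT116. Removing it changed the sign of the HCT116 ratio for 10 of 39 members, and the part of base composition in the results was not tested further.

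Levels are given as CPM, reads scaled to library size with TMM factors set within each line, so the 2 libraries of a line are compared with each other. No TMM factor was set between lines, so comparisons of levels across lines, as where groups are said to overlap, are rough. Values listed for 3 lines are in the order HCT116, HT29 and SW480. Few members differed by a wide margin in every line. MAP1LC3B, which encodes LC3B, and WIPI1, a PI3P-binding protein of the growing autophagosome membrane, were lower by at least 2-fold in all 3 lines. They were 2 of the 40 members, of which ULK1, ULK2, MCOLN1 and TFEB did not have enough reads in all lines. Of 9657 genes with enough reads in all lines, 0.828% were at least 2-fold lower in each. No member was at least 2-fold higher in all lines, against 1.13% of those genes. LAMP3, a lysosome-associated membrane protein, and GABARAPL1, another ATG8 protein, were lower in every line as well, and GLA, the lysosomal alpha-galactosidase, was higher in every line. A difference in a bulk culture does not tell fewer cells with a transcript apart from less transcript per cell.

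The test over lines was limma on log2 of the authors' normalised value plus a pseudocount of 1, a scale on which changes of low genes come out too small. Cell lines were the replicates, so a p-value sets the mean ratio against a spread among these 3 lines. That spread was drawn towards a trend over all genes, with 7.26 prior beside 2 residual degrees of freedom. An SE is therefore not the spread of that gene's own ratios alone. By Benjamini-Hochberg adjusted p over 10875 genes, 0 of the 39 members listed in all lines passed 0.05, and 0% of all genes did. At an unadjusted p under 0.05, 7 members were lower, where 7.04% of all genes were, and 3 were higher, where 6.59% of all genes were. The 7 lower members were LAMP3, MAP1LC3B, WIPI1, GABARAPL1, TAX1BP1, OPTN and ATG12, and the 3 higher ones were GLA, ATP6V0D1 and MCOLN1. DESeq2 on the whole reads recovered from the table called 3 of them lower, MAP1LC3B, WIPI1 and LAMP3, and GLA higher, where it called 1.23% of all genes lower and 1.01% higher. The quasi-likelihood test of edgeR on the same reads called 0 members and 0% of all genes, with 11.8% of all genes at an unadjusted p under 0.05. Limma without HCT116 called MAP1LC3B, WIPI1 and LAMP3 lower and GLA higher, where 1.39% and 1.72% of all genes were. Without HT29 it called LAMP3 lower, where 0.248% of all genes were, and no member higher, where 0.276% were. Without SW480 it again called LAMP3 lower, where 0.855% of all genes were, and no member higher, where 0.405% were.

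**Figure D1:**
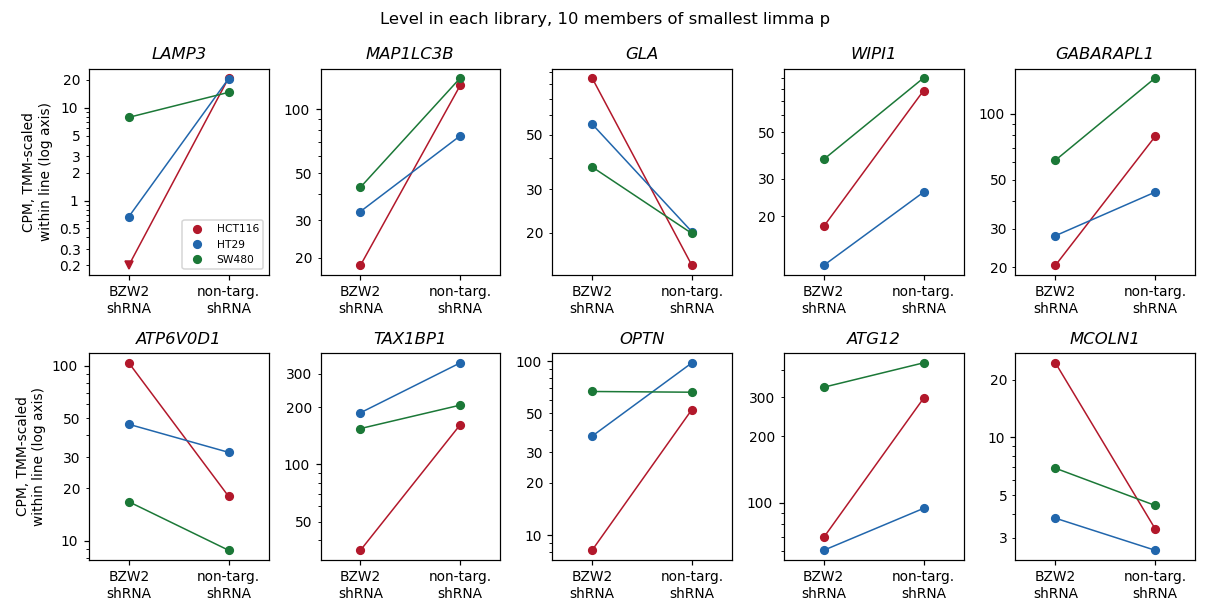
Level of the 10 members with the smallest limma p in each library, in CPM (reads scaled to library size with TMM factors within a line, log axis), BZW2 shRNA on the left and non-targeting shRNA on the right of each panel. Each line joins the 2 libraries of a cell line, and the triangle marks 0 reads of LAMP3, drawn at 0.2 CPM. LAMP3 and MAP1LC3B lie lower and GLA higher with the BZW2 shRNA within each line, whereas OPTN is level in SW480.

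The promoters of 5 members are shown because the lysosomal genes are known for the CLEAR motif, whose core is TCACGTGA, and because MAP1LC3B and GLA had the lowest and the highest limma estimate among members with reads in every library. RefSeq (GRCh38.p14) gave promoters of 33 of the 40 members, from 250 bases before to 50 bases after the start of the gene. The 250 bases before the start are printed 5′ to 3′ on the strand of the gene, with capitals for TCACGTGA or the E-box CACGTG that it contains. The stretches are chr16:67481158-67481407, minus strand for ATP6V0D1, chr19:7522374-7522623, plus strand for MCOLN1, chr13:113296989-113297238, plus strand for LAMP1, chrX:101407926-101408175, minus strand for GLA and chr16:87392086-87392335, plus strand for MAP1LC3B.
ATP6V0D1 promoter: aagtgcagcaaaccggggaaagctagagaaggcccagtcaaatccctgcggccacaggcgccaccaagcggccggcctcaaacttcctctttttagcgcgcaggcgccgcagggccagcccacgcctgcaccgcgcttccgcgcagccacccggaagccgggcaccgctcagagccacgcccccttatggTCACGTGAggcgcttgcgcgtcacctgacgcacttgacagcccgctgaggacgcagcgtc
MCOLN1 promoter: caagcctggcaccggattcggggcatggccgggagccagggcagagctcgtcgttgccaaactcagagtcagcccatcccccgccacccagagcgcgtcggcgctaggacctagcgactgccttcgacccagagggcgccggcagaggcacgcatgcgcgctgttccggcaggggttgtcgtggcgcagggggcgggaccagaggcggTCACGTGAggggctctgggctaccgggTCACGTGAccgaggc
LAMP1 promoter: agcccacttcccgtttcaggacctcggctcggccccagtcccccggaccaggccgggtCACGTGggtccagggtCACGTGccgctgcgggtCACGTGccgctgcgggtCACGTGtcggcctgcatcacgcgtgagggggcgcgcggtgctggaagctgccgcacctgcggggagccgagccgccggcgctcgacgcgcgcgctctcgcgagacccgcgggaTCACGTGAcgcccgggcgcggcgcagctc
GLA promoter: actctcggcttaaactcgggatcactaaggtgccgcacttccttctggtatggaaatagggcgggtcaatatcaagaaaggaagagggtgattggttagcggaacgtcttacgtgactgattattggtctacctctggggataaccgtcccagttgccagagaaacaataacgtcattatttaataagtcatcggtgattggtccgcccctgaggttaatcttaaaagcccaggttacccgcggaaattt
MAP1LC3B promoter: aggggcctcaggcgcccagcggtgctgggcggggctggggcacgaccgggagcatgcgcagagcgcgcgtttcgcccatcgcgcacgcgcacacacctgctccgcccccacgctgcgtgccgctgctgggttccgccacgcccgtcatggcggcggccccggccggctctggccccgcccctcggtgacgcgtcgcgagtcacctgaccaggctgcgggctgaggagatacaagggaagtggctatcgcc
ATP6V0D1 carried TCACGTGA from position −60, MCOLN1 from −42 and −15, and LAMP1 from −29 and, across the start, from −2. The fourth member with the motif was ATG3, at position 5 after the start. These were 4 of 33 member promoters, against 1.04% of 27305 RefSeq promoters of the same length, searched on both strands. CACGTG, which lies within every TCACGTGA, was in 6 of 33 member promoters, those of CTSD and ATG14 besides these 4, against 7.43% of all promoters. TGATGNAA, a composite site known for CHOP and ATF4, was in 0 of 33 member promoters and in 3.67% of all promoters. The capitals do not occur in the GLA and MAP1LC3B stretches, which says only that these letters are not in this window. Over all genes tested, 11 of 181 genes with TCACGTGA in the promoter were lower and 17 higher at an unadjusted p under 0.05, and their median log2 fold change was −0.05. Of the 8514 genes without it 610 were lower and 592 higher, with a median of 0.03.

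Among the ATG8 proteins, which are conjugated to the autophagosome membrane and bind receptors, the LC3B and GABARAPL1 genes were lower and the other 2 members differed little. MAP1LC3B (chr16:87383995-87404779, GRCh38) had 18.4, 33.0 and 42.9 CPM in the BZW2 shRNA libraries of HCT116, HT29 and SW480, against 129.8, 75.0 and 140.5 CPM in the non-targeting libraries. It was lower within each line. That left 14.2% of the non-targeting level in HCT116 (95% counting interval 9.86 to 19.8%), 44.0% in HT29 (38.3 to 50.4%) and 30.5% in SW480 (26.4 to 35.2%). These exact Clopper-Pearson intervals cover counting error only. The limma log2 fold change was −1.86 ± 0.42 (SE; adjusted p = 0.25), and in HCT116 the log2 ratio was −3.19 with the GC and length trend removed, beside −2.79 as measured.

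GABARAPL1 had 20.4, 27.9 and 61.4 CPM in the BZW2 shRNA libraries of HCT116, HT29 and SW480, against 78.8, 44.0 and 145.3 CPM in the non-targeting libraries. It was lower within each line, although SW480 with the BZW2 shRNA was above HT29 with the non-targeting one. The log2 ratios were −1.92, −0.66 and −1.24, and the limma estimate was −1.24 ± 0.40 (SE; adjusted p = 0.31). GABARAP, a relative that acts mainly in late steps of autophagosome maturation, had 20.9, 12.4 and 11.7 CPM with the BZW2 shRNA, against 12.7, 13.7 and 14.1 CPM with the non-targeting shRNA. It was higher in HCT116 and slightly lower in the other lines, and its limma estimate of 0.14 had a 95% interval of −0.89 to 1.16. GABARAPL2, also called GATE-16, had log2 ratios of −0.19, −0.29 and −0.22. With the trend removed, the HCT116 ratio was 0.48 for GABARAP and 0.49 for GABARAPL2, so the sign of GABARAPL2 turned.

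Set per kilobase of the longest annotated transcript, the order of the 4 ATG8 genes was not the same in both groups. MAP1LC3B had 5.96 CPM per kilobase in the HCT116 BZW2 shRNA library, below GABARAP at 12.8, GABARAPL2 at 10.6 and GABARAPL1 at 6.36. In the HCT116 non-targeting library it was first, at 42.1 CPM per kilobase, above GABARAPL1 at 24.5, GABARAPL2 at 12.1 and GABARAP at 7.77. On 36 reads of MAP1LC3B and 40 of GABARAPL1, the lower 2 of the 4 were not separable in that BZW2 shRNA library. In HT29 with the BZW2 shRNA the first was GABARAPL2 at 15.1, with MAP1LC3B at 10.7, whereas with the non-targeting shRNA MAP1LC3B was first at 24.3. In SW480 with the BZW2 shRNA GABARAPL1 was first at 19.1, and with the non-targeting shRNA MAP1LC3B at 45.5 and GABARAPL1 at 45.2 were not separable. Among these 4 genes, MAP1LC3B was thus first, or level with the first, in each non-targeting library and in none of the BZW2 shRNA libraries. The ATG8 genes MAP1LC3A, MAP1LC3B2 and MAP1LC3C had no entry and could not be ranked. The transcript actually used in these cells is not given in the table, so the levels per kilobase carry that uncertainty.

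Of the proteins that bring lipid to the membrane or read its PI3P, WIPI1 was lower, while the other 3 were above the non-targeting level in the ratios as measured. WIPI1 had 17.9, 11.7 and 37.1 CPM in the BZW2 shRNA libraries of HCT116, HT29 and SW480, against 78.5, 26.0 and 90.1 CPM in the non-targeting libraries. It was lower in each line, at 22.8% (15.7 to 32.1%), 45.1% (35.5 to 56.9%) and 41.2% (35.0 to 48.4%) of the non-targeting level. The groups overlapped, since SW480 with the BZW2 shRNA was above HT29 with the non-targeting shRNA. The limma estimate was −1.48 ± 0.41 (SE; adjusted p = 0.27), and the HCT116 log2 ratio was −2.35 with the trend removed and −2.10 as measured. WIPI2, the PI3P reader that recruits ATG16L1, was slightly above the non-targeting level in every line, with log2 ratios of 0.53, 0.27 and 0.36 as measured, but at −0.18 in HCT116 with the trend removed. ATG2A, a lipid transfer protein, and ATG9A, a lipid scramblase, had log2 ratios of 1.18 and 1.83 in HCT116. Both were near the non-targeting level in the other lines, and with the trend removed their HCT116 ratios were −0.04 and 0.66.

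The kinase complexes that start autophagy gave no shared direction. ULK2 had log2 ratios of −2.67, −0.26 and −0.36, on 7 reads in the HCT116 BZW2 shRNA library and 19 in the HT29 one. Its paralog ULK1 had log2 ratios of 0.75, 0.28 and −0.29, on 21 reads in each SW480 library. In every line the counting interval of ULK1 included no difference. ATG13, the adaptor of the ULK complex, had 30.1, 39.9 and 27.0 CPM with the BZW2 shRNA, against 29.03, 53.9 and 26.1 CPM with the non-targeting shRNA. It was level in HCT116 and SW480 and lower in HT29, and the limma estimate of −0.08 had a 95% interval of −0.96 to 0.81. BECN1, the Beclin 1 scaffold of the PI3-kinase complex, was slightly higher in each line, with log2 ratios of 0.18, 0.19 and 0.34. ATG14, which targets that complex to the endoplasmic reticulum, had log2 ratios of −1.02, 0.16 and 0.40. In HCT116 with the trend removed, ULK1 turned to −0.55 and ATG13 to −0.49. There ULK2 was at −2.22, BECN1 at 0.72 and ATG14 at −0.39.

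The conjugation enzymes also lacked a common direction, and ATG12 was the member with the lowest estimate. ATG12, the ubiquitin-like protein joined to ATG5, had 69.5, 60.8 and 334.0 CPM in the BZW2 shRNA libraries of HCT116, HT29 and SW480, against 297.6, 94.15 and 430.9 CPM in the non-targeting libraries. It was lower within each line, but the levels of the lines differ so much that the groups overlap. The log2 ratios were −2.09, −0.63 and −0.37, and the limma estimate was −0.996 ± 0.42 (SE; adjusted p = 0.36). Its GC content was 37.5%, and with the trend removed the HCT116 ratio was −0.52. ATG3, the E2-like enzyme for ATG8 proteins, had 34.2, 82.4 and 59.0 CPM with the BZW2 shRNA, against 46.5, 81.7 and 42.3 CPM with the non-targeting shRNA. It was lower in HCT116, level in HT29 and higher in SW480, and its limma estimate of 0.05 had a 95% interval of −0.82 to 0.92. Its HCT116 ratio turned to 0.65 with the trend removed.

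ATG7, the E1-like enzyme of both systems, had log2 ratios of 1.57, 0.30 and 0.07, and 1.31 in HCT116 with the trend removed. ATG16L1, which sets the site of ATG8 conjugation, had log2 ratios of 1.00, 0.09 and 0.31. ATG5, the partner of ATG12, had log2 ratios of −1.18, −0.56 and 0.15, and 0.09 in HCT116 with the trend removed. Of the proteases that process ATG8 proteins, ATG4A and ATG4B were members. ATG4A had log2 ratios of −1.47, 0.02 and −0.04, on as few as 8 reads in the HCT116 BZW2 shRNA library, and ATG4B had log2 ratios of 0.73, 0.56 and −0.03. The HCT116 ratio without the trend was 0.99 for ATG16L1 and −0.83 for ATG4A, and it turned to −0.49 for ATG4B.

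NBR1, OPTN and TAX1BP1, 3 of the 4 cargo receptors, were lower in HCT116 and HT29, while SQSTM1, which encodes p62, went in opposite directions in those lines. TAX1BP1, a receptor for protein aggregates, had 35.3, 187.3 and 154.6 CPM in the BZW2 shRNA libraries of HCT116, HT29 and SW480, against 162.1, 343.4 and 205.5 CPM in the non-targeting libraries. It was lower within every line, and the groups overlapped. Its log2 ratios were −2.19, −0.87 and −0.41, and the limma estimate was −1.12 ± 0.42 (SE; adjusted p = 0.34). OPTN, the optineurin receptor of mitophagy and of bacteria, had 8.18, 37.0 and 66.9 CPM with the BZW2 shRNA, against 52.7, 97.7 and 66.2 CPM with the non-targeting shRNA. It was lower in HCT116 and HT29 and level in SW480, with log2 ratios of −2.62, −1.39 and 0.01 and a limma estimate of −1.31 ± 0.52 (SE; adjusted p = 0.35). NBR1, a receptor that works beside p62, had log2 ratios of −1.21, −0.31 and −0.51. Without the trend, the HCT116 ratios were −2.15 for TAX1BP1, −2.16 for OPTN and −0.64 for NBR1.

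SQSTM1 had 866, 319 and 353.9 CPM in the BZW2 shRNA libraries of HCT116, HT29 and SW480, against 297.7, 1027 and 272.1 CPM in the non-targeting libraries. It was 2.91-fold higher in HCT116 (95% counting interval 2.72 to 3.11), at 31.1% of the non-targeting level in HT29 (29.8 to 32.4%) and 1.30-fold higher in SW480 (1.21 to 1.39). HT29 with the non-targeting shRNA was the library with the highest level. The log2 ratios were 1.54, −1.69 and 0.38, with 0.46 in HCT116 and −1.83 in HT29 after the trend was removed. Over the 3 lines the limma estimate was 0.11, with a 95% interval of −1.16 to 1.38.

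Of the 2 transcription factors of the CLEAR network, TFEB had few reads where it was listed, and TFE3 had more. TFEB was not listed in HCT116 and had 62 and 16 reads in HT29 and SW480 with the BZW2 shRNA, against 72 and 14 reads with the non-targeting shRNA, so it was not tested over lines. TFE3 had 9.71, 32.9 and 13.2 CPM with the BZW2 shRNA in HCT116, HT29 and SW480, against 11.7, 24.4 and 14.1 CPM with the non-targeting shRNA. As measured, neither factor was 2-fold apart in a line with data, and for TFE3 the limma estimate of 0.06 had a 95% interval of −0.92 to 1.04. With the trend removed, however, the log2 ratio of TFE3 in HCT116 was −1.44, beside −0.26 as measured.

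**Figure D2:**
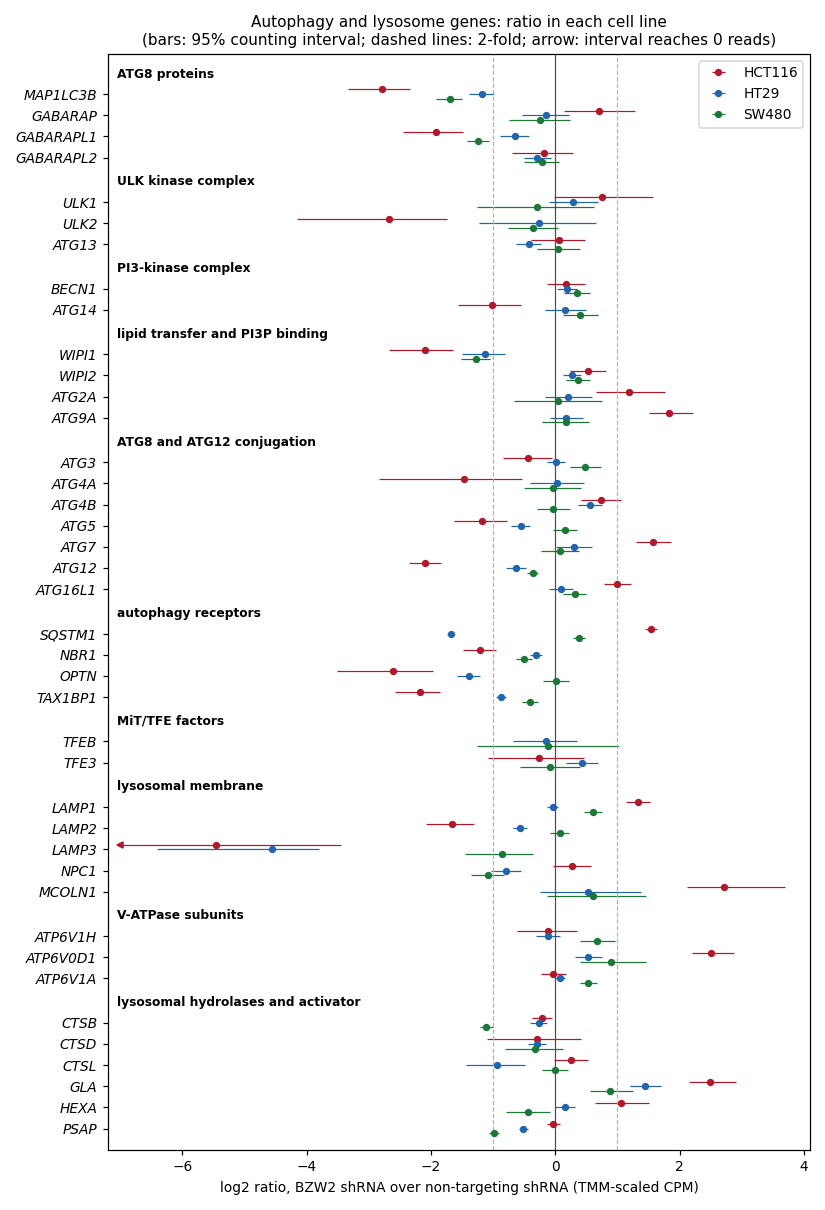
Log2 ratio of BZW2 shRNA over non-targeting shRNA for the 40 members in each line (TMM-scaled CPM, prior count of 2), grouped by role. Each point compares the 2 libraries of a line, bars are 95% counting intervals of the reads, and the arrow marks an interval that reaches 0 reads. MAP1LC3B and WIPI1 lie beyond the dashed 2-fold line in all 3 lines, SQSTM1 lies on opposite sides in HCT116 and HT29, and GLA lies above 0 throughout.

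The lysosomal genes were divided. LAMP3 (chr3:183122213-183163839, GRCh38), a member of the LAMP family that is induced in dendritic cells and tumours, had 0, 6 and 49 reads in the BZW2 shRNA libraries of HCT116, HT29 and SW480, against 132, 192 and 73 reads in the non-targeting libraries. The BZW2 shRNA libraries were lower in every line, and far more so in HCT116 and HT29 than in SW480. With the 0 reads set at a floor of 3 reads for that library, LAMP3 was at least 13.7-fold lower in HCT116, and the 95% counting interval of the same ratio reaches up to 9.13% of the non-targeting level, a looser limit. It was at 3.25% of the non-targeting level in HT29 (1.18 to 7.19%) and at 53.8% in SW480 (36.6 to 78.3%). The limma estimate was −3.92 ± 0.89 (SE; adjusted p = 0.25), and it depends on the pseudocount, being −4.28 with 0.5 and −2.95 with 5.

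The other LAMP genes encode the most abundant glycoproteins of the lysosomal membrane. LAMP1 did not follow LAMP3, whereas LAMP2 was lower in HCT116 and HT29 as measured, by less than LAMP3. LAMP1 had log2 ratios of 1.33, −0.04 and 0.60, and LAMP2 had log2 ratios of −1.67, −0.57 and 0.07. With the trend removed, the HCT116 ratio was 1.03 for LAMP1 and −0.16 for LAMP2, whose GC contents were 51.2% and 37.7%. The 2 genes thus lay on opposite sides of the non-targeting level in HCT116 as measured, and LAMP2 was close to it once the trend was removed. NPC1, the cholesterol exporter of the lysosome, had log2 ratios of 0.27, −0.79 and −1.08. MCOLN1, the calcium channel TRPML1, had 48, 34 and 43 reads in the BZW2 shRNA libraries of HCT116, HT29 and SW480, against 21, 24 and 22 reads in the non-targeting libraries. Scaled for depth, it was higher in each line, with log2 ratios of 2.71, 0.52 and 0.61, and the counting intervals of HT29 and SW480 included no difference. The limma estimate was 1.35 ± 0.60 (SE; adjusted p = 0.37), and the HCT116 ratio was 1.51 with the trend removed.

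Among the V-ATPase subunits, ATP6V0D1 was higher and the other 2 members were near the non-targeting level in HCT116 and HT29 as measured. ATP6V0D1, a subunit of the membrane sector, had 103.7, 46.3 and 16.7 CPM in the BZW2 shRNA libraries of HCT116, HT29 and SW480, against 17.9, 32.0 and 8.83 CPM in the non-targeting libraries. It was higher within each line, and the groups overlapped across lines. The fold was 5.79 (4.57 to 7.35) in HCT116, 1.45 (1.24 to 1.68) in HT29 and 1.89 (1.32 to 2.76) in SW480. The limma estimate was 1.35 ± 0.49 (SE; adjusted p = 0.33), and the HCT116 log2 ratio was 1.41 with the trend removed, beside 2.501 as measured. ATP6V1A, the catalytic subunit, had log2 ratios of −0.04, 0.08 and 0.53, and ATP6V1H, a regulatory subunit, had log2 ratios of −0.13, −0.11 and 0.67. Once the trend was removed, ATP6V1A was more than 2-fold higher in HCT116, at 1.16, and ATP6V1H was at −0.26.

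GLA was the one enzyme gene of the 6 hydrolase and activator members that was higher in every line. It had 84.8, 55.2 and 37.0 CPM in the BZW2 shRNA libraries of HCT116, HT29 and SW480, against 14.7, 20.2 and 19.9 CPM in the non-targeting libraries. It was thus higher within each line. The fold was 5.75 (4.43 to 7.49) in HCT116, 2.73 (2.31 to 3.25) in HT29 and 1.86 (1.46 to 2.38) in SW480. The limma estimate was 1.65 ± 0.45 (SE; adjusted p = 0.27), and the log2 ratios hardly changed with the trend removed, at 2.41, 1.25 and 0.75.

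The cathepsins CTSB, CTSD and CTSL are the main proteases of the lysosome. CTSB had log2 ratios of −0.21, −0.26 and −1.11, CTSD had log2 ratios of −0.30, −0.29 and −0.33, and CTSL had log2 ratios of 0.25, −0.93 and −0.00. PSAP, the precursor of the saposin activators, had log2 ratios of −0.03, −0.52 and −0.99. CTSB, CTSD and PSAP were below the non-targeting level in every line, whereas CTSL differed in direction between lines. HEXA, a subunit of beta-hexosaminidase, had log2 ratios of 1.06, 0.16 and −0.43. Once the trend was removed, CTSD was more than 2-fold lower in HCT116, at −1.54. There CTSB was at −0.82, PSAP at −0.87 and HEXA at 1.48, and CTSL turned to −0.39.

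**Figure D3:**
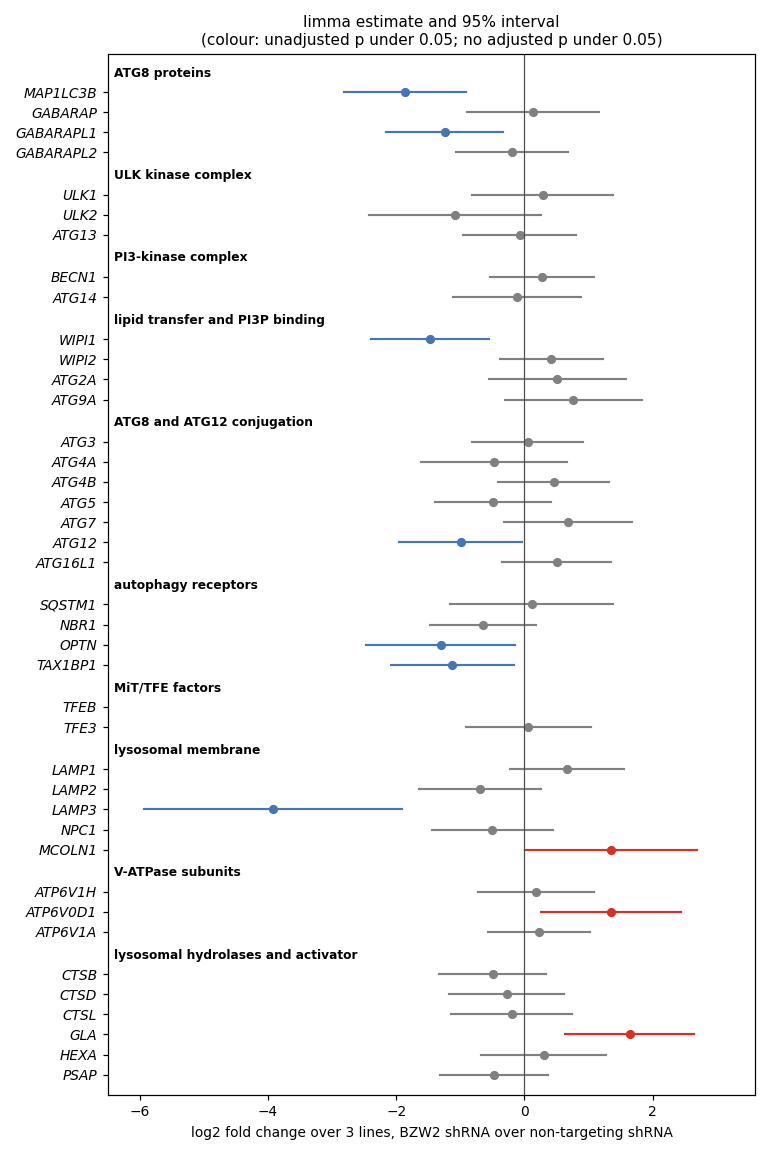
Limma log2 fold change over the 3 lines with its 95% interval for 39 members, BZW2 shRNA over non-targeting shRNA, grouped by role; TFEB has no estimate. Colours mark an unadjusted p under 0.05, blue for lower and red for higher. The coloured autophagy genes all lie below 0, from −1.86 for MAP1LC3B to −0.996 for ATG12, while the coloured lysosomal genes lie on both sides, from −3.92 for LAMP3 to 1.65 for GLA.

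Set beside each other, the 24 autophagy genes included 6 lower and 0 higher at an unadjusted p under 0.05, and the 14 lysosomal genes included 1 lower and 3 higher, where 7.04% of all genes were lower and 6.59% higher. The 1 lower lysosomal gene of 14 is a share near that background. The medians did not separate the groups: the median log2 fold change was −0.10 for the autophagy genes and −0.01 for the lysosomal genes, beside 0.02 over all 10875 genes. In HCT116, HT29 and SW480 the median log2 ratio was −0.31, −0.20 and −0.01 for the autophagy genes and 0.11, −0.19 and 0.03 for the lysosomal genes. Of all members listed in the 3 lines, 12 were below the non-targeting level in each line, where 21.1% of all genes were, and 9 were above it in each line, where 22.3% of all genes were. Without the trend, 13 were below it and 9 above it in each line, where 19.4% and 25.1% of all genes were. The difference between the groups of members was not tested, since a choice of named genes is no sample of independent units.

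Within lines, at least 2-fold ratios were counted where the higher library had at least 5 CPM. In HCT116, 13 of 39 members were lower and 9 higher, where 28.8% and 26.8% of all genes were, so the members were close to the background there. With the trend removed, 9 members were lower and 7 higher in HCT116, where 15.9% and 18.8% of all genes were. In HT29, 5 of 38 members were lower, MAP1LC3B, WIPI1, SQSTM1, OPTN and LAMP3, and GLA was higher, where 6.17% and 3.74% of all genes were. In SW480, 5 of 38 members were lower, MAP1LC3B, GABARAPL1, WIPI1, NPC1 and CTSB, where 7.36% of all genes were, and 0 were higher, where 4.98% of all genes were. Across the members the ratios of HCT116 and HT29 had a Spearman coefficient of 0.65, those of HCT116 and SW480 of 0.56 and those of HT29 and SW480 of 0.55, against 0.43, 0.26 and 0.37 over all 10875 genes. Members are not independent of each other, and the lines share the vector and the selection.

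**Figure D4:**
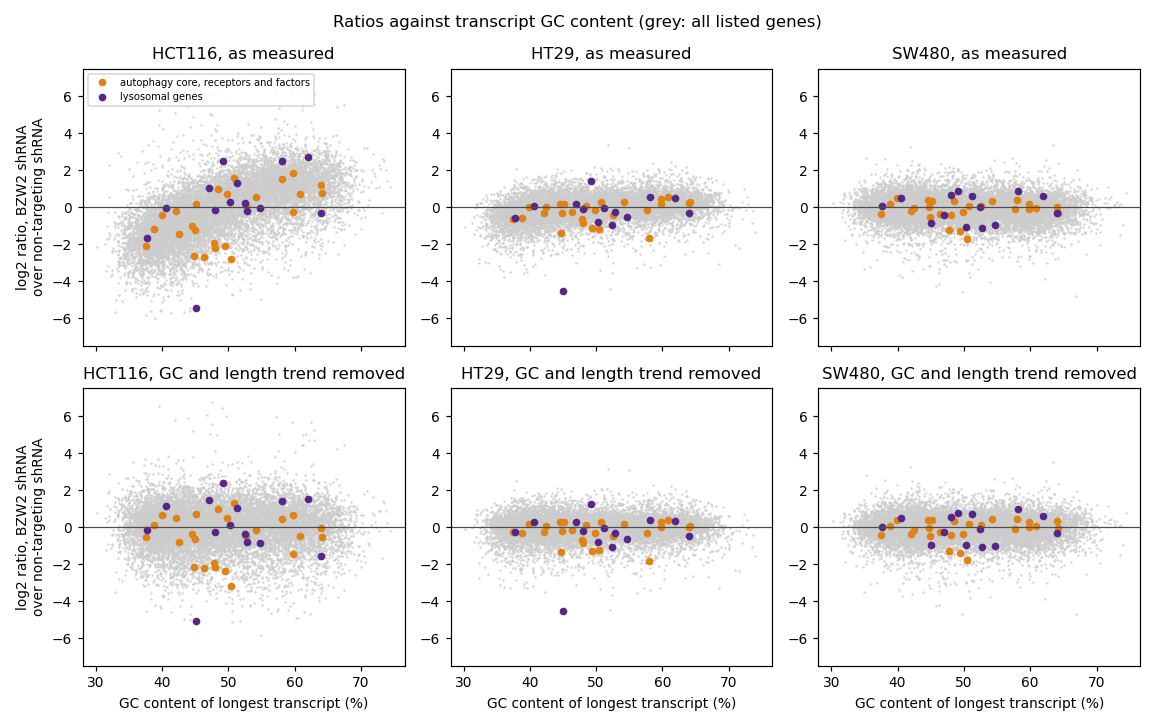
Log2 ratio of BZW2 shRNA over non-targeting shRNA against the GC content of the longest transcript (%), for all listed genes (grey), the autophagy core, receptor and MiT/TFE members (orange) and the lysosomal members (purple), as measured above and with the GC and length trend removed below. The rising cloud in HCT116 has a Spearman coefficient of 0.66, against 0.31 in HT29 and −0.06 in SW480, and LAMP3 stays far below 0 in HCT116 and HT29 in both rows.

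Lists of further genes of the same pathways were examined in the same fit, where 7.04% of all genes were lower and 6.59% higher at an unadjusted p under 0.05. Of 24 further autophagy core genes tested, 2 were lower and 0 higher, a share near that background. These were RB1CC1, the FIP200 scaffold of the ULK complex, with log2 ratios of −3.30, −1.65 and −0.69, and TMEM41B, a scramblase of autophagosome formation, with −1.73, −0.58 and −0.72. The 24 genes had a median log2 fold change of −0.26, beside 0.02 over all genes. In all 3 lines 10 of them were lower and 1 higher, beside 21.1% and 22.3% of all genes. Of 13 further cargo, mitophagy and ER-phagy receptors, 3 were lower and 0 higher. They were BNIP3L, the mitophagy receptor NIX, SEC62, an ER-phagy receptor, and CALCOCO2, the receptor NDP52. The 13 receptor genes had a median log2 fold change of −0.47, with 6 lower and 4 higher in all 3 lines. BNIP3L was the only gene of these further lists that was at least 2-fold lower in all 3 lines. It had 21, 213 and 674 reads in the BZW2 shRNA libraries of HCT116, HT29 and SW480, against 943, 690 and 1526 reads in the non-targeting libraries.

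Further lysosomal genes were few among those past that threshold. The 18 further genes listed with the lysosomal membrane had a median log2 fold change of −0.23, beside 0.02 over all genes. MANBA, the beta-mannosidase, was the 1 lower gene of 34 further hydrolases, and none of these were higher. Of 13 further V-ATPase subunits 0 passed in either direction. FNIP1, a partner of folliculin in control of TFEB and TFE3, was the 1 lower gene of 16 in control of MiT/TFE factors and mTORC1 at the lysosome, with log2 ratios of −1.94, −1.25 and 0.00. In all these lists 0 genes passed a limma or edgeR adjusted p of 0.05, while DESeq2 called RB1CC1 (adjusted p = 0.0251) and BNIP3L (adjusted p = 0.00322) lower.

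In mouse cells, ATF4 and CHOP are known to be needed for the induction of a set of autophagy genes, and 12 human counterparts were tested. Of these, MAP1LC3B and ATG12 were lower at an unadjusted p under 0.05 and 0 were higher, beside 7.04% and 6.59% of all genes. Their median log2 fold change was −0.07, and 4 were lower and 3 higher in all lines, beside 21.1% and 22.3% of all genes. ATF4 itself had log2 ratios of −1.84, −0.34 and −1.22 and DDIT3, which encodes CHOP, had log2 ratios of −4.21, −2.50 and −4.57. The part of these factors in the members' values was not tested.

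The sources used here give neither the gene counter nor whether strand was kept. Reads of overlapping genes may therefore be shared. In the table, 14 members had exons that overlap another listed gene, whereas LAMP3, GABARAPL1, GLA and ATP6V0D1 had none. FBXO31, which overlaps MAP1LC3B on the opposite strand, had log2 ratios of 1.61, −0.16 and −0.77, and ARSG, opposite WIPI1, had log2 ratios of 0.79, 0.05 and −0.93. Neither partner was lower in all lines. AP3S1, opposite ATG12, had log2 ratios of −2.30, −0.12 and 0.03. JAZF1, opposite TAX1BP1, had 0, 5 and 36 reads with the BZW2 shRNA, against 35, 21 and 39 reads with the non-targeting shRNA. Its log2 ratios of −3.64, −1.67 and −0.41 were below 0 in every line, as those of TAX1BP1 were. The part of shared reads was not tested. PNPLA6, which overlaps MCOLN1 on the same strand, had log2 ratios of 1.84, 0.85 and −0.39, with more reads than MCOLN1 in every library.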

How the data were processed

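Transcript levels of 6 RNA sequencing libraries were taken from the deposited table, in which the authors had divided gene read counts by a size factor for each library, giving a normalised signal. Per the submitters' processing notes, bcl2fastq 2.17, STAR 2.5.2b and DESeq were used, with GRCh38. The factors of each line multiply to 1, so they were set per line. Divided by the step of its library, each value was a whole read count to within 0.1 read, in 100% of cases. Of 13040 identifiers, 19 with repeated rows were left out. Listed genes had at least 21 reads over the 2 libraries of a line.

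The main test, run in R 4.3.3, was a two-sided limma 3.58.1 fit of log2(value + 1) on treatment and line with trended variance. It covered the 10875 genes listed in all 3 lines, and a minimum value of 1 in 3 libraries removed 0 of them. The fit had 2 residual and 7.26 prior degrees of freedom. Replicates were paired by the cell line label: their deviations from the group means had r = 0.28 (HCT116), r = 0.75 (HT29) and r = 0.45 (SW480). The HCT116 pair did not stand out. Its non-targeting library had r = 0.38 with the SW480 BZW2 shRNA library. Its BZW2 shRNA library had r = 0.23 with the SW480 non-targeting library. The labels mention no repeat cultures, so p-values rest on spread among lines, drawn towards the variance trend over all genes. Within a line there was no test: log2 ratios of TMM-scaled CPM used edgeR 4.0.16 with a prior count of 2. The trend in GC content and length was removed by loess with a span of 0.3, using the longest GENCODE 29 transcript. DESeq2 1.42.0 and edgeR were alternatives on recovered reads, with 134 lower and 110 higher genes called by DESeq2 and 0 by edgeR. The fit was checked on simulated data in which each changed gene had the same fold in every line. Those data held no GC trend such as that of the HCT116 pair. Tables were joined with Python 3.11.15 and pandas 2.3.3.

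All 40 members are accounted for. Members with the smallest and the largest limma p, and those 2-fold apart in all lines, have their level in every library. Of the further lists, genes 2-fold apart in all lines were named, and so were those at an unadjusted p under 0.05, a choice made after their values were seen, except for an item that is not reported here. Members, lists and tests were chosen with earlier results of these data known. RefSeq promoters of ATP6V1A, ATP6V1H, CTSB, HEXA, LAMP2, LAMP3 and PSAP were not used here, nor were protein sequences.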

Additional observations from a re-analysis of the deposited data

Results flagged for a closer look

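SQSTM1, the gene of the cargo receptor p62, had a log2 ratio of 1.54 in HCT116 and −1.69 in HT29, each at least 2-fold and in opposite directions. With 1 library per line and treatment, the difference between the lines was not tested. With the GC and length trend removed the ratios were 0.46 and −1.83, so the HCT116 value is then under 2-fold.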

How the results depend on the processing

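Depth limits HCT116 most, where the BZW2 shRNA library had 2187373 reads, and the 3 lines leave 2 residual degrees of freedom. The test over lines used the cell line as a block. With no replicate block, 0 genes were called lower and 0 higher, the medians of the autophagy and lysosomal genes stayed at −0.10 and −0.01, and no call among the members changed.

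Leaving out 1 line at a time gave 27, 93 and 151 genes called lower and 30, 44 and 187 called higher, instead of 0 and 0, with 1 to 3 members called lower and 0 to 1 higher. Without HCT116 the called members were MAP1LC3B (adjusted p = 0.0146), WIPI1 (adjusted p = 0.0391) and LAMP3 (adjusted p = 0.0425), lower, and GLA (adjusted p = 0.0432), higher. Without HT29 and without SW480 LAMP3 alone was called (adjusted p = 0.0462 and 7.24e-06). With a line left out, fewer residual degrees of freedom remain, so these p-values rest more on variance pooled over all genes. DESeq2 called 134 genes lower and 110 higher, with 3 members lower and 1 higher. With the GC and length trend removed and the replicate block kept, 2 genes and 0 members were called lower, with 2035 genes at an unadjusted p under 0.05. Across these alternatives the adjusted p of MAP1LC3B lay between 0.00763 and 1.0. Without HCT116 the log2 fold change was 0.75 for ATP6V0D1, 0.61 for MCOLN1, −0.61 for TAX1BP1, −0.66 for OPTN and −0.47 for ATG12, more than 1.5 times nearer to 0 than with all lines.

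The median of the lysosomal genes was −0.20 with a mean value of at least 50, and −0.17 to 0.22 with a line left out. The sign of some members reversed in some settings, and the cause was not tested. With the trend removed and the replicate block kept these were GABARAP (−0.11), ULK1 (−0.25), ATG14 (0.063), ATG4B (−0.064), SQSTM1 (−0.36), TFE3 (−0.44) and ATP6V1H (−0.0047). With TMM scaling it was ATG3 (−0.0026), and among the 2-fold ratios of HCT116, with the trend removed, ATG5 (0.090) and ATG2A (−0.036), which were well away from 0 as measured. In all, 10 of 39 members changed sign in HCT116 on removing the trend, 1 of 40 in HT29 and 3 of 40 in SW480. With a line left out, the log2 fold change ranged over −0.17 to 0.32 for GABARAP, −0.16 to 0.090 for ATG13, −0.40 to 0.31 for ATG14, −0.18 to 0.27 for ATG3, −0.74 to 0.018 for ATG4A, −0.63 to 0.998 for SQSTM1 (−0.036 without SW480), −0.14 to 0.20 for TFE3, −0.084 to 0.31 for ATP6V1H, −0.45 to 0.16 for CTSL and −0.11 to 0.65 for HEXA. Scaling HCT116 by total reads moved the median log2 ratio of all genes to −0.39, beside −0.08 with TMM, and the counts of 2-fold members moved by less than 1.5 times under every within-line setting.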
